A study of Mus musculus with 12 samples.

Results

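The unfolded protein and amino acid response was followed through 38 member genes, a list of the stress sensors, transcription factors, feedback genes, amino acid enzymes, tRNA ligases and chaperones of the endoplasmic reticulum (ER). All 38 of 38 were measured, among 18193 genes on the arrays, and each was read by the brightest of its probe sets over all 12 arrays. Transcript levels came from total RNA of 4 murine leukaemia cell lines from BXH-2 mice, an inbred strain prone to myeloid leukaemia. The parental lines, B117P and B140P, are labelled as sensitive to the cytidine analogue Ara-C (cytarabine), and B117H and B140H are highly resistant lines derived from them, so B117P with B117H and B140P with B140H form 2 lineages. The 3 arrays of each line carry the letters A, B and C. The labels give all 12 samples, parental ones included, the same text of exposure to rising Ara-C concentrations and of passage without the drug, and they name no other genetic change. Each group is 1 cell line, so a difference between lineages is a difference between these lines. Nothing in the labels says that the arrays of a line came from separate cultures, and p-values therefore measure only the spread between these samples, which may be technical.

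Proteins that enter the ER are folded there by chaperones, and misfolded ones are sent back to the cytosol and degraded. When unfolded proteins build up, the membrane sensors IRE1 (gene Ern1), PERK (Eif2ak3) and ATF6 (Atf6) signal to the nucleus: IRE1 splices the messenger of Xbp1, ATF6 is cut to free a transcription factor, and both raise chaperone genes. PERK instead phosphorylates the initiation factor eIF2, which lowers general translation and favours that of ATF4, and the same step is reached from amino acid shortage through the kinase GCN2, so that ATF4 raises genes that supply amino acids and charge tRNAs.

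The branches are read through short promoter elements, which were looked for in the RefSeq promoter windows (build GRCm38.p6, 250 bases before to 50 after a start site). Windows were found for 32 members. The ER stress element, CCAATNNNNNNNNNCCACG or its reverse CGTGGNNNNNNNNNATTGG, was in the windows of 8 of the 32 members (25%) and in 0.137% of all 27018 genes with a window. These members were the chaperone genes Hspa5, Hsp90b1, Calr, Canx, Pdia6, Dnajc3 and Creld2 and the ubiquitin ligase gene Syvn1. The composite element bound by ATF4 with its CCAAT/enhancer-binding partners, TGATGNAA or TTNCATCA, was in those of 7 of 32 members (21.9%) and of 4.51% of all genes, namely Atf3, Asns, Chac1, Trib3, Herpud1, Aars and Gars. The core shared by XBP1 and ATF6, TGACGTG or CACGTCA, was in those of Hspa5 and Eprs (6.25% of the members, 2.22% of all genes). Both strands were searched, no match was counted as a bound site, and none of the motifs as a cause of a level.

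The stretches below are shown because they hold the matches of Hspa5, the best known target of the unfolded protein response, and of the members that had an ER stress element and differed between the parental lines. Each runs 5′ to 3′ on the gene's own strand, with the fixed letters of the element in capitals.
Hspa5, chr2:34772013-34772055, plus strand: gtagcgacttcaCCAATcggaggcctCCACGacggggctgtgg
Calr, chr8:84847063-84847105, minus strand: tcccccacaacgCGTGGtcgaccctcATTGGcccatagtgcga
Dnajc3, chr14:118937815-118937857, plus strand: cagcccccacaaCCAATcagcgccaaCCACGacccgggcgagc
Creld2, chr15:88819508-88819550, plus strand: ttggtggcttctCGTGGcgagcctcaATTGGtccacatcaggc
Syvn1, chr19:6046520-6046562, plus strand: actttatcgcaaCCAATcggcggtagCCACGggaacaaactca

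The next stretches are from 3 members with an ATF4 composite element that differed between the parental lines, shown in the same way. The match of Asns began 23 bases before the start site, and those of Chac1 and Herpud1 193 and 112 bases before it.
Asns, chr6:7693213-7693244, minus strand: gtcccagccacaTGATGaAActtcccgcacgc
Chac1, chr2:119351037-119351068, plus strand: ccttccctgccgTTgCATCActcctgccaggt
Herpud1, chr8:94386305-94386336, plus strand: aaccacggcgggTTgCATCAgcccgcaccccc

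The median of an array was 118 to 131 intensity units in the deposited RMA values, which are linear (RMA is a method that joins the probes of a probe set into 1 value), and array B of B140H had the highest median and lower quartile. Across probe sets, r was 0.988 to 0.997 within a line and no higher than 0.967 between the lineages. Dck, whose kinase activates Ara-C, had a mean of 2794 intensity units in B117P against 10.2 in B117H, and of 2465 in B140P against 298 in B140H. Of the myeloid list, Ptprc had a mean of 8909 or more in every line and Spi1 of 2347 or more, but other genes of the list differed widely. Summed over the 11 of 11 myeloid markers measured, the level was 75213 to 88769 in B117P, 59653 to 61991 in B117H, 31053 to 32878 in B140P and 27807 to 29160 in B140H. Of this list, the granule enzyme gene Mpo had a mean of 25315 in B117P, 16824 in B117H, 748 in B140P and 156 in B140H. Lyz2 had means of 2785, 1274, 107 and 126 in the same order. The 6 B lymphoid markers measured summed to 919 to 1344 in B117P and to 3990 to 7250 in the other lines. Vpreb1 made up most of the sum in B117H (mean 4385). Cd79b and Ebf1 had means of 1855 and 809 in B140P, against 106 and 54.3 in B117P. Both were called higher in B140P than in B117P, as were Cd79a and Vpreb1, while Pax5 and Ms4a1 were not called. The 6 plasma cell markers, which matter because plasma cells carry a large ER, summed to 632 to 755 in all lines, so the ranges of the sum overlapped. Of these only Mzb1 was called. It was higher in B140P (mean 291) than in B117P (mean 212; 0.45, limma adjusted p = 0.00584). Its change also differed between the lineages (-0.57, limma adjusted p = 0.0264). Markers of T and NK cells (6 measured) summed to 2590 to 3647 in B117P, 4329 to 5371 in B117H and 827 to 1429 in the B140 lineage. Nkg7 and Klrd1 made up most of this sum in the B117 lineage, while Cd3e, Cd3g, Cd4 and Cd8a were called in no comparison. The sums were 895 to 1239 in the B117 lineage and 721 to 868 in the B140 lineage for stroma and endothelium (7 measured), and they overlapped between all lines for erythroid cells and megakaryocytes (919 to 1179).

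Between the parental lines, many genes of the response were lower in B140P than in B117P. Limma called 14 of the 38 members lower and 1 higher, or 39.5% in either direction, against 23.8% of all genes (12% higher and 11.8% lower). All genes include dim ones, and no background matched to the level of the members was worked out. Of the 105 other genes of the same pathways, described below, 47.6% were called, so a share above that of all genes was not particular to the members. Asparagine synthetase (Asns) was lower by far the most, by a measured 18.3-fold whose size is not exact, and the others called lower ran through all roles: the sensor gene Ern1, the factors Atf4 and Atf5, the ATF4 target Chac1, the tRNA ligase genes Aars, Eprs and Nars, the chaperone genes Calr, Dnajb11, Dnajc3 and Creld2, and Herpud1 and Edem1 of the degradation pathway. The 1 called higher was Syvn1. With the array letter as a block limma called 17, the same 14 lower, and Sel1l (adjusted p = 0.0418) and Ppp1r15a (adjusted p = 0.0454) higher beside Syvn1. The share of all genes called between lines with the block was not worked out, so counts of members from that fit, here and below, have no background. A call is an adjusted p under 0.05 from limma, adjusted over all 45037 probe sets.

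The shift was broad as well. Of the members, 33 of 38 (86.8%) had a lower mean in B140P, against 49.5% of all genes, and the median difference was -0.27 (log2) against 0.00 for all genes. An unadjusted p under 0.05 was reached by 23 members, but the share of all genes that reached it was not worked out, so this count has no background. The 3 B140P arrays lay all below the 3 B117P arrays for 17 members and all above for 3, while 18 overlapped. Over all genes the arrays lay apart for 38.6%, in similar shares below (18.7%) and above (19.9%). The summed markers of myeloid, T and NK, and stromal cells were also lower in B140P and those of B lymphoid cells higher. Of the T and NK list only Nkg7 was called (mean 2144 in B117P and 72.9 in B140P), and of the stromal list only Pecam1 (410 and 192). The part of these markers in the members' differences was not tested. In such bulk RNA, fewer cells with a transcript and less of it per cell cannot be told apart.

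**Figure D1:**
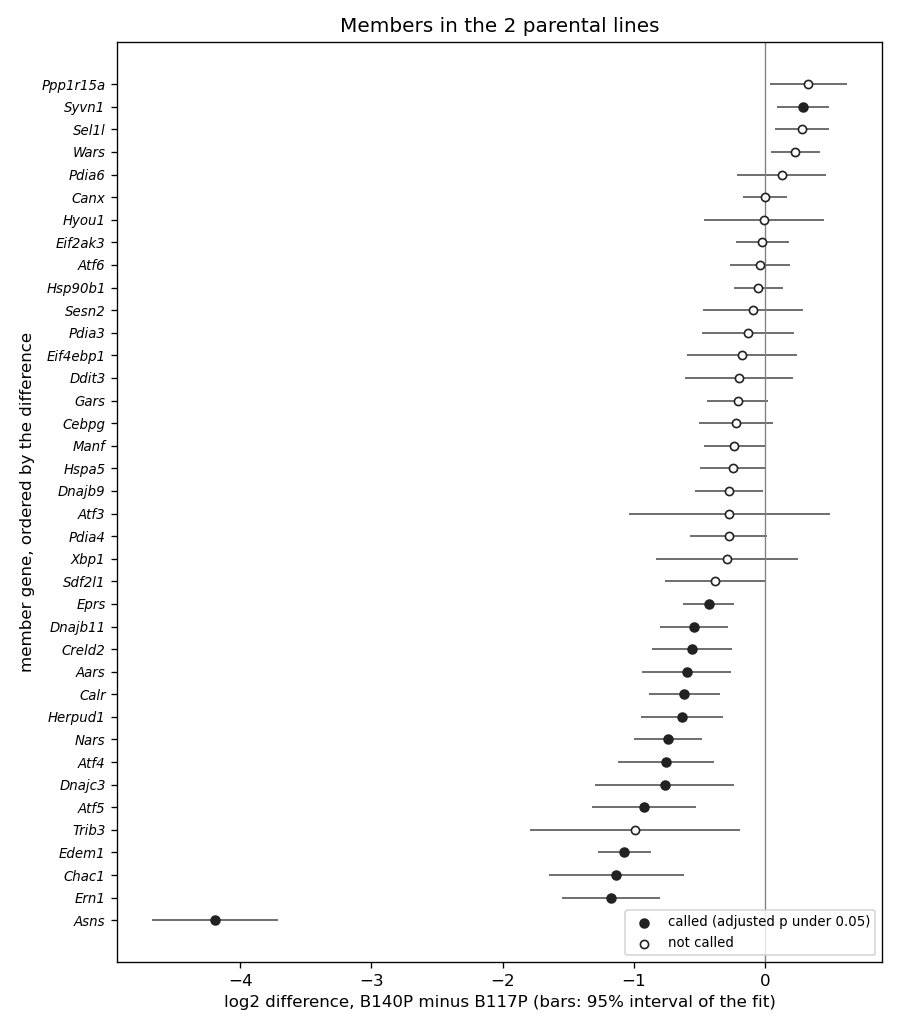
Difference between the parental lines for each of the 38 members, as log2 B140P minus B117P (x axis) with the 95% interval of the limma fit as bars, ordered by the difference; filled points are called at an adjusted p under 0.05. Asns stands at -4.19, 14 filled points lie below 0 and 1, Syvn1 at 0.29, above it.

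Asns makes asparagine from aspartate and is the member in which the lineages differed most. Its probe set measured 1653, 2393 and 2281 intensity units on arrays A, B and C of B117P and 2549, 2001 and 3963 on those of B117H. In B140P the values were 102, 135 and 105, and in B140H 105, 135 and 121. All 6 arrays of the B140 lineage therefore lay far below all 6 of the B117 lineage, while within a lineage the parental and resistant arrays overlapped. The difference B140P minus B117P was -4.19 ± 0.22 (log2, SE of the fit; limma adjusted p = 1.78e-08), with a 95% interval of -4.67 to -3.71. A second Asns probe set differed by -6.06 (limma adjusted p = 1.86e-08), with means of 1126 in B117P and 15.5 in B140P. RMA compresses differences among low values and no measure of background came with them. The B140P means of 114 and 15.5 are both below 125, the median of all probe sets, so neither size is exact.

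Chac1, which degrades glutathione and is a target of ATF4, measured 380.2, 422 and 206 intensity units in B117P and 138, 142 and 157 in B140P. The highest B140P array was below the lowest B117P array, though array C of B117P was closer to the B140P arrays than to the other arrays of its own line. The difference was -1.13 ± 0.24 (log2; limma adjusted p = 0.00381). Trib3, a pseudokinase that damps the pathway, had a similar mean difference, -0.99 ± 0.37, but its B117P arrays ranged from 184 to 519.7. It was not called by its brightest probe set (limma adjusted p = 0.0928). Without array C of B117P it was called (difference -1.36, limma adjusted p = 0.0244), as it was on the mean of its probe sets (-0.82, limma adjusted p = 0.0423).

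Among the factors, Atf4 measured 5873, 5345 and 4405 intensity units in B117P and 2729, 3542 and 2981 in B140P. Every B140P array was below every B117P array, and the difference was -0.75 ± 0.17 (log2; limma adjusted p = 0.00621). Atf5, a close relative of Atf4 that is translated under the same control, measured 691, 633 and 602 in B117P against 391, 316 and 311 in B140P, again without overlap (-0.92 ± 0.18; limma adjusted p = 0.00261). Ddit3, the gene of the death-associated factor CHOP, measured 408, 569 and 440.2 in B117P and 394, 441 and 386 in B140P. Its arrays overlapped and it was not called (-0.20 ± 0.19; limma adjusted p = 0.645), and the same held for Atf3 (-0.27) and Cebpg (-0.22), a partner of ATF4. Xbp1 was not called by its brightest probe set (-0.29, limma adjusted p = 0.592), while 2 dimmer probe sets were called lower, at -0.51 (limma adjusted p = 0.02) and -0.42 (limma adjusted p = 0.0433).

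Of the 3 sensors 1 differed. Ern1 measured 1419, 1370.3 and 1608 intensity units in B117P and 736, 533 and 693 in B140P, so that every B140P array was below every B117P array. The difference was -1.17 ± 0.17 (log2; limma adjusted p = 0.000249), although the other 4 Ern1 probe sets, all dimmer, were not called, with differences of -0.33 to 0.01. Eif2ak3 measured 872, 950.2 and 837 in B117P and 916, 885 and 820.5 in B140P, a difference of -0.02 with a 95% interval of -0.22 to 0.18. Atf6 measured 2125, 2269 and 2032 in B117P and 1957, 2162 and 2128 in B140P, a difference of -0.04 with an interval of -0.27 to 0.19. The arrays of both genes overlapped, but 2 dimmer Atf6 probe sets were called lower, at -0.28 (limma adjusted p = 0.0447) and -0.42 (limma adjusted p = 0.0151).

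The tRNA ligase genes of the list, whose enzymes join an amino acid to its tRNA, were called lower for asparagine (Nars, -0.74 ± 0.12; limma adjusted p = 0.000509), alanine (Aars, -0.60 ± 0.16; limma adjusted p = 0.0152) and glutamate with proline (Eprs, -0.43 ± 0.09; limma adjusted p = 0.00337). Nars measured 5484, 7188 and 5836 intensity units in B117P and 3478, 3835 and 3699 in B140P, with no overlap. Gars, for glycine, was not called (-0.21), nor was Wars, for tryptophan, whose difference was 0.23. The Aars call ended without array B of B117P (limma adjusted p = 0.0719) and without array A of B140P (limma adjusted p = 0.0692).

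Among the ER chaperones and cochaperones, all 9 means were lower in B140P and 3 were called. Dnajb11, a cochaperone of the main ER chaperone BiP, measured 4401, 3430.4 and 3968 intensity units in B117P and 2736, 2906 and 2446 in B140P (-0.54 ± 0.12; limma adjusted p = 0.00563). Creld2 differed by -0.56 ± 0.14 (limma adjusted p = 0.0123) and Dnajc3, which encodes another BiP cochaperone, by -0.77 ± 0.24 (limma adjusted p = 0.0453). BiP itself (Hspa5) measured 18184, 15323 and 15445 in B117P and 15412, 13995 and 11912 in B140P, so the arrays overlapped and it was not called (-0.25 ± 0.11; limma adjusted p = 0.186). Hsp90b1, the ER member of the HSP90 family, and Hyou1, which exchanges the nucleotide of BiP, differed by -0.05 and -0.01. The Creld2 call ended without array B of B117P (limma adjusted p = 0.0606) or array C of B140P (limma adjusted p = 0.068), and that of Dnajc3 without any 1 of 6 single arrays, among them A and B of B117P and B and C of B140P (limma adjusted p of 0.0586 to 0.18). Of the dimmer Dnajc3 probe sets, the fourth (-0.89, limma adjusted p = 2.3e-05) and the second (-0.39, limma adjusted p = 0.0197) were called lower. The third and the dimmest were not called (-0.33 and -0.42).

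Of the lectin chaperones and disulfide isomerases, Calr (calreticulin, which holds glycoproteins until they are folded) measured 18543, 16610.1 and 17055 intensity units in B117P and 12516, 11869 and 9816 in B140P. Its B140P arrays were all lower, with a difference of -0.62 ± 0.12 (log2; limma adjusted p = 0.00295). Its membrane-bound counterpart Canx (calnexin) differed by 0.00 with an interval of -0.17 to 0.16, and Pdia3, Pdia4 and Pdia6, which form and shuffle disulfide bonds, were not called (-0.13, -0.28 and 0.13).

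Of the 4 degradation genes 3 were called, in both directions. Edem1, which marks glycoproteins for removal, measured 2786, 3152 and 3053 intensity units in B117P and 1379, 1397 and 1496 in B140P. The arrays of each line lay close together and far from the other line, and the difference was -1.07 ± 0.09 (log2; limma adjusted p = 2.48e-06). Herpud1, a scaffold of the ligase complex, measured 3361, 3618 and 2494 against 2107, 2200.3 and 1744 (-0.64 ± 0.14; limma adjusted p = 0.00649). Syvn1, the ligase HRD1, was the exception, at 1175, 1127 and 1107 in B117P and 1413, 1346 and 1405 in B140P. Every B140P array was above every B117P array, by 0.29 ± 0.09 (limma adjusted p = 0.0454), a call that ended when any of 8 single arrays was left out (limma adjusted p of 0.0566 to 0.135). Sel1l, the partner of HRD1, was also higher in all B140P arrays but was called only with the letter block (0.28; limma adjusted p = 0.056 without it).

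Split by promoter element, the members are given as a description only. All 7 with the ATF4 composite element had a lower mean in B140P, 4 were called, and their median difference was -0.64, within a range of -4.19 to -0.21. Of the 8 with an ER stress element 6 had a lower mean, 3 were called lower and 1 higher, and the median was -0.15. Of all 38 members 86.8% had a lower mean and 39.5% were called, against 49.5% and 23.8% of all genes. No test of this split was made.

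The lineage difference carried over to the resistant lines for part of the members. For 12 of 38, all 6 arrays of B140P and B140H lay below all 6 of B117P and B117H, against 9.31% of all genes, and for 1, Syvn1, they lay above, against 8.91%. The 12 were Asns, Atf4, Atf5, Chac1, Ern1, Calr, Dnajb9, Herpud1, Edem1, Creld2, Eprs and Nars, and 11 of them were among those called lower in B140P, the other being Dnajb9. The summed myeloid markers, those of T and NK cells and those of stroma were separated in the same way, and their part in this was not tested. The summed plasma cell markers were not separated.

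**Figure D2:**
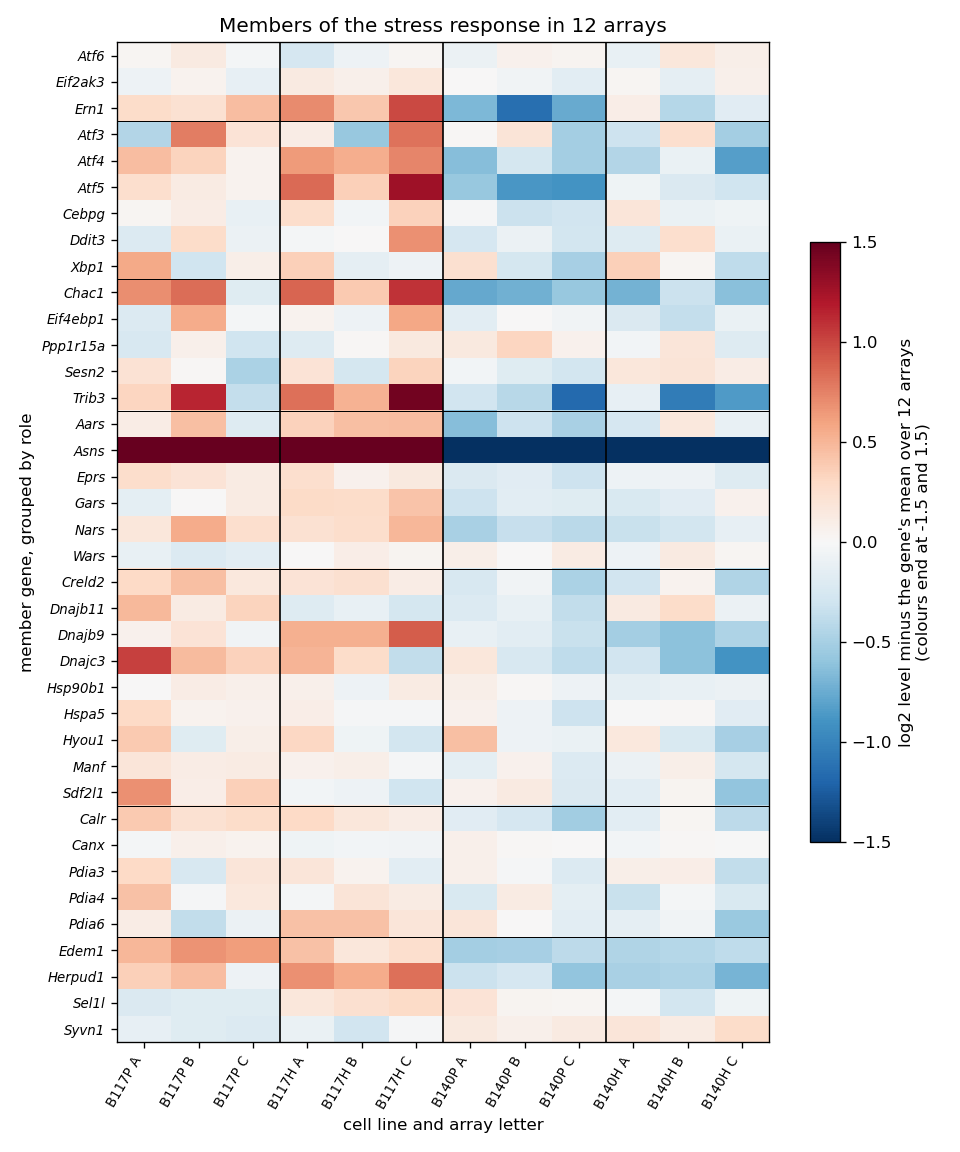
Heat map of the 38 members (rows, grouped by role) in the 12 arrays (columns, by line and letter), coloured by the log2 level minus the gene's own mean over the 12 arrays; colours end at -1.5 and 1.5, which Asns passes. Asns, Ern1, Chac1, Atf5 and Edem1 are mostly red in the 6 arrays of the B117 lineage and mostly blue in the 6 of the B140 lineage. No such block of rows separates the resistant from the parental arrays in both lineages, though the resistant arrays of Atf5 lie above the parental ones in each.

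The resistant line B117H differed from B117P in members that went in both directions. Limma called 3 upward, Atf5, Dnajb9 and Sel1l, and 1 downward, Dnajb11. This was 10.5% of the members, against 9.41% of all genes (4.73% upward and 4.68% downward). The count was 1, Dnajb9, without array C of B117H, 2 without array A or C of B117P and 9 with the array letter as a block. No called change reached 2-fold: the members ranged from -0.52 to 0.68 (log2), with a median of 0.06 against -0.01 for all genes. An unadjusted p under 0.05 was reached by 11 members, again with no share of all genes beside it. The B117H arrays lay all above the B117P arrays for 9 members and all below for 5, or 14 of 38, against 26.2% of all genes (13.7% above and 12.5% below). The summed B lymphoid and T and NK markers were higher and the myeloid ones lower in B117H than in B117P. Of the B lymphoid list Vpreb1 rose (mean 666 to 4385) and Cd79b fell (-0.75, limma adjusted p = 0.0385). Of the T and NK list Klrd1 rose (mean 500 to 1903), and the other markers of both lists were not called. The part of these markers in the members' changes was not tested. The B117P arrays serve in this comparison and in that of the parental lines, so the 2 are not independent.

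Dnajb9, which encodes the cochaperone ERdj4, measured 1246, 1378 and 1155 intensity units in B117P and 1726, 1729.9 and 2245 in B117H. The B117H arrays were all higher, array C the most, and the change was 0.59 ± 0.12 (log2; limma adjusted p = 0.00849). Sel1l measured 1549, 1584 and 1587 in B117P and 2015, 2116 and 2186 in B117H, so both lines were tight and apart (0.42 ± 0.09; limma adjusted p = 0.0148). Of its other 4 probe sets none was called, and the next brightest changed by 0.02. The call ended without array B (limma adjusted p = 0.0557) or C of B117H (limma adjusted p = 0.0693).

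Atf5 measured 691, 633 and 602 intensity units in B117P and 1047, 743 and 1399.98 in B117H. All B117H arrays were higher, but they were spread widely, and the change of 0.68 ± 0.18 (log2; limma adjusted p = 0.0415) was near the threshold. The call ended when any of 9 single arrays was left out, 5 of them of the compared lines, and was weakest without array C of B117H (0.46, limma adjusted p = 0.161). Dnajb11 went the other way, from 4401, 3430.4 and 3968 in B117P to 2749, 2909 and 2625 in B117H. The arrays did not overlap, and it fell by 0.50 ± 0.12 (limma adjusted p = 0.0214). That call ended without array A or C of B117P or array A or C of B117H (limma adjusted p of 0.0662 to 0.0928).

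Dimmer probe sets of 2 members were called where the brightest were not. For Dnajc3, the probe set of rank 4 by level fell by 0.51 (limma adjusted p = 0.00591). For Aars, that of rank 2 rose by 0.48 (limma adjusted p = 0.0467). The other dimmer probe sets of Dnajc3 changed by -0.01 to 0.01 and were not called.

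The sensors and main factors passed no test in B117H. Ern1 measured 1907, 1545 and 2319 intensity units in B117H (change 0.38), Eif2ak3 1004, 968 and 1029 (0.18) and Atf6 1736, 1973 and 2125 (-0.14). The Eif2ak3 arrays of B117H lay above those of B117P, and the others overlapped. Atf4 measured 6603, 6223 and 7085, all above B117P, with a change of 0.36 ± 0.17 (limma adjusted p = 0.339). Ddit3 measured 461, 471 and 757 in B117H, where array C alone stood above B117P, and changed by 0.23 (limma adjusted p = 0.741). Hspa5 measured 15765, 14533 and 14567, which overlapped B117P, and changed by -0.12 with a 95% interval of -0.37 to 0.12. Asns changed by 0.39 with an interval of -0.09 to 0.87, Trib3 by 0.56 and Chac1 by 0.34. For Asns, Chac1 and Trib3 array C of B117H was the highest of all 12 arrays.

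In the resistant line B140H, limma called 1 of 38 upward, the sensor gene Ern1, and 0 downward, or 2.63% against 6.56% of all genes (2.81% upward and 3.75% downward). An unadjusted p under 0.05 was reached by 6 members, again with no share of all genes beside it. With the array letter as a block limma called 3, Atf5 (adjusted p = 0.0483) and Dnajc3 (downward, adjusted p = 0.0181) beside Ern1 (adjusted p = 0.00247). The median change was 0.04 (log2), against 0.05 for all genes, and the members ranged from -0.45 to 0.69. The B140H arrays lay apart from those of B140P for 9 members (6 above, 3 below), against 23.7% of all genes (13.7% above and 10% below). The summed myeloid markers were lower and those of stroma and endothelium higher in B140H (758 to 868) than in B140P (721 to 749), and their part was not tested. No stromal marker was called, and Pecam1 rose the most (mean 192 to 243). Of the other marker lists, Mpo (mean 748 to 156), Vpreb1 (3202 to 1170) and Klrd1 (561 to 206) were called, all lower in B140H. Vpreb1 and Klrd1 had risen in B117H.

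Ern1 measured 736, 533 and 693 intensity units in B140P and 1251, 869 and 1044 in B140H. The resistant arrays were all higher and remained below every B117 array, and the change was 0.69 ± 0.17 (log2; limma adjusted p = 0.0392), or 1.61-fold. It rests on the brightest of 5 probe sets: the other 4 changed by -0.05 to 0.21 and were not called. The call ended when any of 8 single arrays was left out, 5 of them of the compared lines (limma adjusted p of 0.0536 to 0.181). Atf5 measured 391, 316 and 311 in B140P and 555, 497 and 469.6 in B140H, so the arrays did not overlap, but without the block it was not called (0.58 ± 0.18; limma adjusted p = 0.11). Without array B or C of B117H it was called (limma adjusted p = 0.0315 and 0.037).

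BiP, the other sensors and the main factors were not called in B140H by their brightest probe sets. Hspa5 measured 14654, 14948 and 13099.9 intensity units in B140H, which overlapped B140P, with a change of 0.05 and a 95% interval of -0.19 to 0.30. Atf4 measured 3144, 3975 and 2399 (0.02), Ddit3 411, 557 and 436 (0.19), Eif2ak3 937, 834 and 962 (0.06) and Atf6 1921, 2333 and 2209 (0.05), all overlapping with B140P. Asns changed by 0.08, with an interval of -0.40 to 0.56. Dimmer probe sets of 3 members were called where the brightest were not. The second of Atf6 rose by 0.46 (limma adjusted p = 0.00875), the second of Edem1 rose by 0.51 (limma adjusted p = 0.00577) and the dimmest of 5 for Dnajc3 fell by 0.57 (limma adjusted p = 0.0487).

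**Figure D3:**
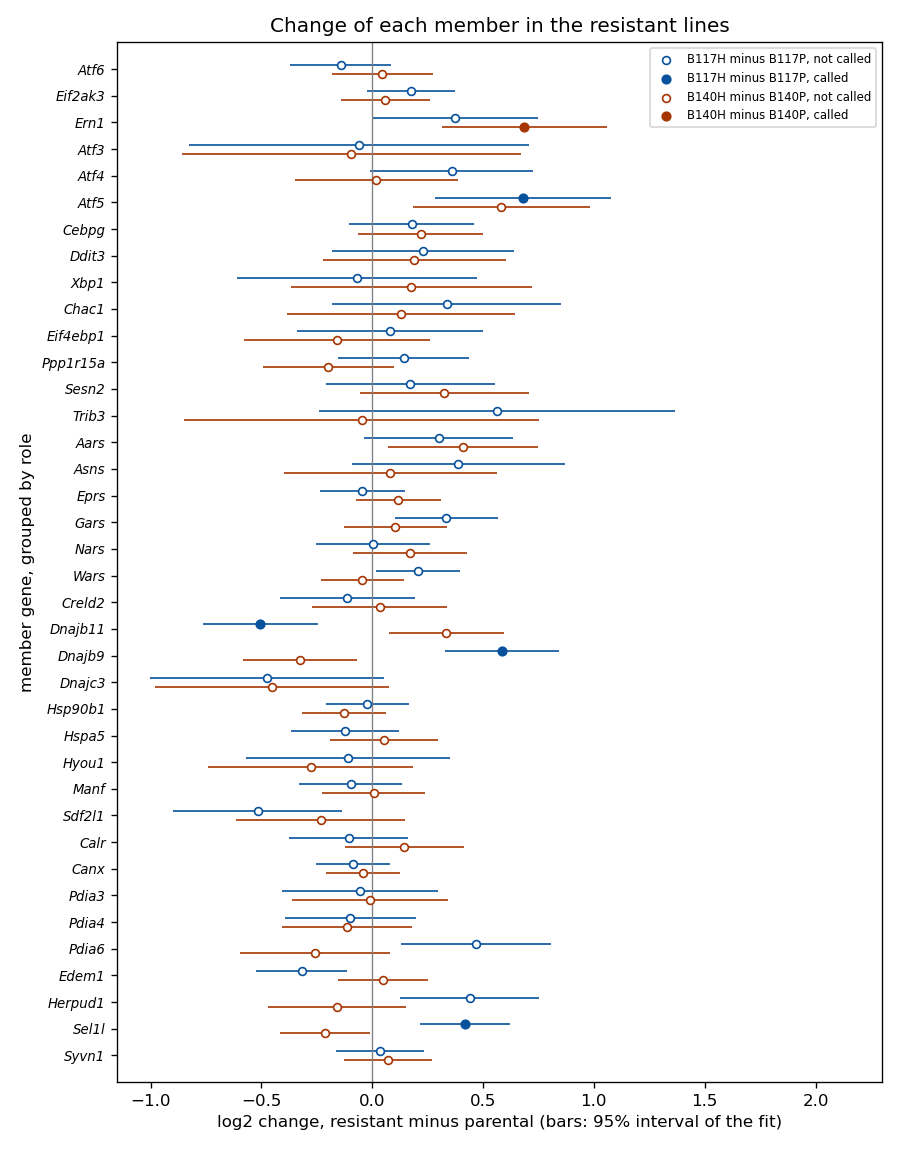
Change of each member in B117H (blue) and B140H (brown) against its own parental line, in log2 units with the 95% interval of the limma fit, grouped by role; filled points are called at an adjusted p under 0.05. The 4 filled blue points and the 1 filled brown point belong to different members, and the blue and brown points of Dnajb9, Dnajb11 and Sel1l lie on opposite sides of 0.

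Without a term for the array letter, no member was called in both resistant lines and 33 were called in neither. Changes of opposite sign in the 2 lineages were seen for 17 members, and the share of all genes with such signs was not worked out. With the letter as a block, limma called 2 in both: Atf5 upward (adjusted p = 0.017 in B117H and 0.0483 in B140H) and Dnajc3 downward (adjusted p = 0.00998 and 0.0181). The Dnajc3 calls are those of its brightest probe set, and its dimmer probe sets did not all fall in B117H. From brighter to dimmer they changed there by -0.01, 0.01, -0.51 and 0.01 in the fit without the block. In B140H they changed by -0.41, -0.32, -0.28 and -0.57 in that fit. The test of the difference itself, the change in B140H minus that in B117H, called 3 of 38 members (7.89%, against 10.4% of all genes, 4.91% higher and 5.51% lower). All 3 belong to ER folding and degradation. Dnajb9 rose in B117H and measured 1109, 1071 and 945 intensity units in B140P against 842, 781 and 867 in B140H, so that the B140H arrays were all lower. Its difference was -0.91 ± 0.17 (log2; limma adjusted p = 0.00476). Dnajb11 fell in B117H but measured 2736, 2906 and 2446 in B140P and 3455, 3799 and 2974 in B140H, all higher, and its difference was 0.84 ± 0.17 (limma adjusted p = 0.00816). For Sel1l the values were 2074, 1844 and 1832 in B140P and 1759, 1479.96 and 1722 in B140H, all lower, and the difference was -0.63 ± 0.13 (limma adjusted p = 0.00994). In all 3 the changes of the 2 lineages went in opposite directions, without overlap between parental and resistant arrays of a lineage. The changes within B140H alone were not called (-0.33, 0.33 and -0.21). Leaving out any single array ended none of the 3 calls. The next member was Pdia6, at -0.73 ± 0.22 (limma adjusted p = 0.0686), and the Sel1l call ended when the gene's probe sets were averaged (-0.34, limma adjusted p = 0.0892). Dimmer probe sets of Edem1 (0.61, limma adjusted p = 0.0112) and of the sensor gene Atf6 (0.61, limma adjusted p = 0.0272) were called where the brightest were not.

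**Figure D4:**
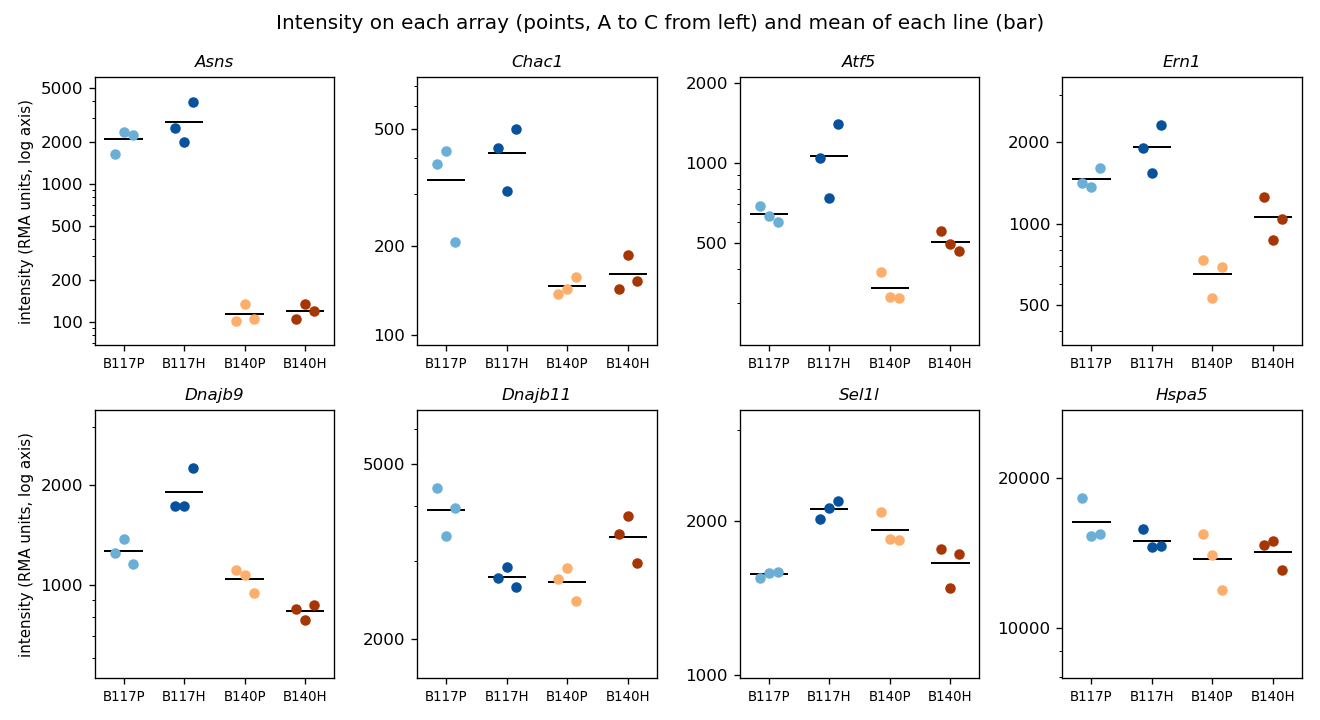
Intensity of 8 members on each array (points; arrays A, B and C from left to right) with the mean of each line (bar), on log axes that differ between panels, so levels are to be read within a panel. Asns lies between 1653 and 3963 in the B117 lineage and between 102 and 135 in the B140 lineage, Dnajb9 and Sel1l are higher and Dnajb11 lower in B117H than in B117P, and Hspa5 overlaps between each resistant line and its parental line.

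Other genes of the same pathways, 105 measured of 110 listed in 5 groups, were read in the same fit. Between the parental lines limma called 35 lower and 15 higher in B140P (47.6%). Upward calls numbered 3 and downward calls 14 in B117H (16.2%), against 3 and 6 in B140H (8.57%). The changes differed between the lineages for 23 (21.9%), 15 of them higher and 8 lower in B140H. The background shares are those given above, and none was worked out for an unadjusted p.

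The amino acid genes other than the members held the largest changes among these other genes, in each resistant line and between the parental lines. Psph, the last enzyme of serine synthesis, fell in both resistant lines, from a mean of 1317 to 288 intensity units in B117H (-2.19, limma adjusted p = 6.44e-07) and from 1044 to 403 in B140H (-1.38, limma adjusted p = 6.44e-05). The earlier enzymes of the same path, Phgdh and Psat1, fell in B140H too, Phgdh by 0.61 (log2; limma adjusted p = 0.00494) and Psat1 from a mean of 1392 to 694 (limma adjusted p = 0.000343), and were not called in B117H (-0.22 and -0.28). In B117H Cth, which makes cysteine from cystathionine, rose by 1.39 (limma adjusted p = 0.00572), the amino acid transporter gene Slc1a4 rose by 1.21 (limma adjusted p = 0.000205) and Gadd45a fell by 0.65. Calls among the 23 genes measured were 2 upward and 2 downward in B117H, and 0 upward and 3 downward in B140H. Between the parental lines 6 were lower in B140P and 2 higher. Cth was lower by the most (-3.66, limma adjusted p = 4.04e-07), followed by Gadd45a (-2.23), Psat1 (-1.83) and the transaminase gene Gpt2 (-1.80).

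In ER folding, export and glycosylation, 7 of 37 genes fell in B117H and 0 rose. They were led by the thioredoxin-domain gene Txndc5 (-1.27, limma adjusted p = 4.68e-05), Ssr1 of the translocon (-1.07, limma adjusted p = 5.76e-06), Ckap4 (-0.93) and the oxidase gene Ero1b (-0.85). Of these 37, 29 (78.4%) had a lower mean in B117H, against 51.5% of all genes, and the median change was -0.14. In B140H 3 rose, Ddost, Dnajc10 and Spcs3, by 0.46, 0.38 and 0.32, and 1 fell, the COPII coat gene Sec24d (-0.90, limma adjusted p = 0.000182). The changes of Ssr1 and Ckap4 differed between the lineages by 1.24 and 1.22 (limma adjusted p of 4.03e-05 and 0.00016), and that of Txndc5 differed too (limma adjusted p = 0.000246). Between the parental lines 17 were lower in B140P, among them the disulfide isomerase gene Pdia5 (-2.56), Dnajc10 (-0.80) and the folding sensor gene Uggt1 (-0.79), and 4 were higher, led by the oxidase gene Ero1a (1.40).

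The 17 other degradation genes measured had 2 that fell in B117H, Faf2 (-0.54) and Selenos (-0.47), and 0 that rose; in B140H limma called 0, with 4 at an unadjusted p under 0.05. Between the parental lines 5 were lower, with Edem3 (-0.78) and Derl2 (-0.77) ahead, and 2 higher, with Herpud2 (0.84) ahead. Of 14 other tRNA ligase genes, the threonine ligase gene Tars (-1.12, limma adjusted p = 9.59e-05) and the isoleucine ligase gene Iars (-0.67) fell in B117H and the serine ligase gene Sars rose (0.45). In B140H limma called 0 of them, with 4 at an unadjusted p under 0.05. In B140P 5 were lower than in B117P, led by Tars (-1.65), Cars (-0.82) and Yars (-0.79), and 3 higher, Vars (0.47) among them.

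Of 14 other stress kinases, phosphatases and transcription factors, Cebpb fell in B117H (-1.54, limma adjusted p = 0.000219), and Sesn3 (-1.06) and the protease gene Mbtps2 (-0.50), whose product cuts ATF6, fell in B140H. None rose in either line. Between the parental lines Nupr1 (-2.93, limma adjusted p = 7.25e-05) and Creb3l2 (-2.36) were lower in B140P, and Ddit4 (2.63), an ATF4 target that restrains mTORC1, and Cebpb (1.83) were higher, 2 lower and 4 higher in all.

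Some members varied with the array letter within the lines. In the fit with the letter as a block, limma called 3 of 38 members lower on C than on A arrays and 0 higher (7.89%, against 6.34% of all genes, 2.59% lower and 3.74% higher): Dnajc3 (-0.68, limma adjusted p = 0.000529), Xbp1 (-0.60, limma adjusted p = 0.00499) and Hyou1 (-0.53, limma adjusted p = 0.00285). What the letters stand for is not given in the labels. Once each line's mean was removed, some pairs of members moved together over the 12 arrays. Dnajb11 with Sdf2l1 (r = 0.971), Pdia3 with Pdia6 (r = 0.969) and Xbp1 with Hyou1 (r = 0.953) were closest among ER genes, and Nars with Eif4ebp1 (r = 0.928), Atf3 with Asns (r = 0.874) and Asns with Ddit3 (r = 0.870) on the amino acid side. Across the sides, Pdia3 with Nars (r = -0.903) and Dnajc3 with Gars (r = -0.879) ran opposite. These correlations describe the spread between arrays, which share their letters and labelling, and are given with no test.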

How the data were processed

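Total RNA of 12 samples, 3 per line, was amplified and biotin-labelled for arrays, per the labels' protocols. The deposited values are probe-set intensity values on a linear scale, made by the authors with RMA per the submitters' processing notes; the version and settings of RMA and the genome build were not given in the sources used here, and no detection calls came with them. They were taken as log2(value + 1), so fold changes are on that scale and understated for dim genes. Of 45101 probe sets, 64 array controls were left out. The platform annotation gave 34945 of the others 1 gene symbol, 932 several and 9160 none, and genes were named from one-symbol probe sets only. Limma 3.58.1 in R 4.3.3 (lmFit, contrasts.fit, eBayes; two-sided) was fitted to all 12 arrays with 1 coefficient per line, with Benjamini-Hochberg adjustment over 45037 probe sets. The median residual SD was 0.154 (log2), and the median gene's 95% interval was a factor of 1.20 to either side. The number of arrays limits this precision.

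The letters were checked by the correlation of deviations from line means. It was 0.587, 0.360 and 0.560 (A, B, C) between B140P and B140H. Between the parental lines it was 0.499, 0.131 and 0.414, and between B117P and B117H 0.555, 0.0278 and 0.392. The A and C arrays thus varied together in each of these pairs of lines, while the B arrays of B117P did so little with those of B140P or B117H. The pairing comes from the data, not the labels. A letter block, other scalings, filters, pseudocounts and probe-set rules and leaving out arrays were tried. The model was tested on simulated data: among 45037 probe sets in B117H against B117P it recovered 24% of changes of 0.5 (log2), 92% of 1 and 100% of 1.5.

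The members and lists were chosen with earlier results of these data known. Any member may be named; from each list of other pathway genes, at most the 4 called genes with the largest absolute change per comparison. Promoter sequences are RefSeq's, and the 6 members without a window are Atf6, Manf, Hyou1, Wars, Nars and Eif4ebp1. Of the listed pathway genes, 5 were not analysed here.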

Additional observations from a re-analysis of the deposited data

Results flagged for a closer look

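The change in the resistant line differed between the lineages for 3 members, by a test of the difference itself (limma, change in B140H minus change in B117H). For Dnajb9 it was -0.91 (adjusted p = 0.00476), with a change of 0.59 in B117H and -0.33 in B140H. For Dnajb11 it was 0.84 (adjusted p = 0.00816), with -0.50 in B117H and 0.33 in B140H. For Sel1l it was -0.63 (adjusted p = 0.00994), with 0.42 and -0.21. In each case the 3 resistant arrays did not overlap with the 3 parental arrays of their lineage, and they lay above them in 1 lineage and below them in the other.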

How the results depend on the processing

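Over 25 alternative settings (24 for the difference between lineages), 6 of the 23 calls of members held in all: Atf5, Asns, Ern1, Calr, Edem1 and Nars between the parental lines. No called direction reversed. With the replicate letter as a block, limma called 9 members in B117H (main count 4), 3 in B140H (1), 5 for the difference (3) and 17 between the parental lines (15). The share of all genes called was not worked out for the alternative settings, so it may have moved in the same way. The B arrays of B117P and B117H did not vary together (r = 0.0278), so the B117H count rests on a block that the data do not bear out for every letter. With a mean over each gene's probe sets it called 4 in B140H and 5 for the difference. In B140H it called 0 with only the compared lines in the fit and 0 with arrays centred on their medians. Leaving out 1 array at a time gave 1 to 4 calls in B117H, 0 to 2 in B140H, 3 to 4 for the difference and 11 to 15 between the parental lines. In B117H, 2 were called without array A or C of B117P and 1 without array C of B117H. Leaving out all arrays of a letter, chosen after seeing the data, gave 0, 2 and 0 calls (without A, B and C) in B117H, 0, 0 and 0 in B140H, 0, 1 and 0 for the difference and 7, 12 and 10 between the parental lines; these fits hold fewer arrays. Centring moved the median of all genes by at most 0.046 (log2) in size. Low intensities limit the sizes of the dimmest values, such as those of Asns in the B140 lineage.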
